A study of Mus musculus with 6 samples.

Results

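Gas1 and 9 genes of the Hedgehog pathway (Cdon, Boc, Ptch1, Smo, Gli1, Gli2, Gli3, Hhip and Sufu) were examined in the RNA-seq data of immortalized mouse embryonic fibroblasts (iMEF), that is, fibroblasts that keep dividing in culture. These 10 genes were taken by symbol from the 22369 genes of the deposited table. Gas1 was selected on its RPKM values in these libraries, which were lower where Nrdc was present, so its values are given as a description without a test, whereas the other 9 genes were chosen as members of the pathway. Nardilysin (Nrdc, listed as Nrd1) is a metalloendopeptidase that also acts as a transcriptional coregulator, and the comparison asked which transcripts depend on it. There were 3 groups of 2 libraries each, all from mice of the C57BL/6 strain and from asynchronously growing cells in low-glucose medium with fetal bovine serum. Nrdc+/+ iMEF came from wild-type mice, Nrdc-/- iMEF came from Nrdc-deficient mice, and Nrdc-/-WT iMEF were Nrdc-/- iMEF infected with a lentivirus that expressed wild-type Nrdc. Libraries of Nrdc-/- iMEF with a control virus were not analysed here, so an effect of infection cannot be told apart from one of Nrdc in that group. The methods describe the replicates as biological, from cells a few passages after infection. They do not state how many independent lines stand behind each group or whether replicates were separate cultures. The p-values therefore measure only the spread between these libraries, which may be smaller than that between independent lines.

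Hedgehog ligands are secreted proteins that bind the receptor Ptch1. Without ligand, Ptch1 holds the transmembrane protein Smo inactive, and Gli transcription factors are kept in check by Sufu and processed into repressors. With ligand, Smo enters the primary cilium and full-length Gli proteins switch on targets such as Gli1, Ptch1 and Hhip. Gas1, Cdon and Boc are cell-surface co-receptors that bind the ligand and help Ptch1 to receive it. Gas1 is a GPI-anchored protein that was first isolated as a gene switched on in growth-arrested fibroblasts. Mouse embryonic fibroblasts are a standard cell type for Hedgehog signalling.

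Levels are given as RPKM, that is, read counts divided by exon length and by library size, so levels of different genes can be compared. The libraries held 16385565 to 19764315 reads over the listed genes. Nrd1 itself was at 28.4, 1.52 and 5.65 RPKM in the Nrdc+/+, Nrdc-/- and Nrdc-/-WT groups (group means), in the order of the labels. It shares 633 bases with Osbpl9 on the other strand, which had 1280 to 3335 reads per library. The strand of the counting is not stated, so reads of these shared bases cannot be told apart. Of 10 fibroblast markers, 9 or 10 had reads in every library, and their summed level was 2907 to 4722 RPKM. Among them, the means in Nrdc+/+ and Nrdc-/- iMEF were 1163 and 1140 RPKM for Vim, 307 and 318 RPKM for Col1a1, 1185 and 1372 RPKM for Fn1 and 0.436 and 0 RPKM for Thy1. Those of Dcn (6.05 and 379 RPKM), Pdgfra (4.70 and 53.4 RPKM) and Col3a1 (37.1 and 266 RPKM) were lower in Nrdc+/+ iMEF. In Nrdc-/-WT iMEF, the mean of Dcn was also lower than in Nrdc-/- iMEF, at 26.5 RPKM. Pdgfra (54.3 RPKM) and Col3a1 (270 RPKM) were near their Nrdc-/- levels there. Vim, Col1a1, Fn1 and Thy1 were at 2096, 410, 1443 and 0.0270 RPKM in Nrdc-/-WT iMEF. The defining epithelial gene Epcam had a group mean of 0 to 0.0239 RPKM and the muscle gene Myod1 was at 0 in all libraries. Krt19 was at 6.98 RPKM and Sox2 at 4.19 RPKM in Nrdc+/+ iMEF, and Sox2 was at 0 in the other groups. The summed levels of the epithelial, endothelial, blood, neural and muscle lists were 0.265 to 7.16, 0.0681 to 1.70, 1.45 to 8.60, 8.54 to 17.0 and 0 to 0.308 RPKM per library. The part of these differences in the results below was not tested.

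Windows at annotated starts of Gas1 and Cdon are shown because these co-receptors were the most abundant of the 3 and took different courses between the lines. Each run is the RefSeq window from 250 bases before to 50 bases after the annotated start in GRCm38.p6, 5' to 3' on the strand of the gene, with the CCAAT box in capitals (its reverse complement ATTGG where it lies on the opposite strand). The Gas1 window lies at chr13:60177486-60177785 on the minus strand and the Cdon window at chr9:35451826-35452125 on the plus strand.
Gas1: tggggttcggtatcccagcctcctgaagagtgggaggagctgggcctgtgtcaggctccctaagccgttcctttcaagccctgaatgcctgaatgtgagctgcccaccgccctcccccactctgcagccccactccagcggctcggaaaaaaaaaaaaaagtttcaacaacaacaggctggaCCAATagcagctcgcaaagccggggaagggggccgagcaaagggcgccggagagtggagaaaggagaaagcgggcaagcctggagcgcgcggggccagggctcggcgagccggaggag
Cdon: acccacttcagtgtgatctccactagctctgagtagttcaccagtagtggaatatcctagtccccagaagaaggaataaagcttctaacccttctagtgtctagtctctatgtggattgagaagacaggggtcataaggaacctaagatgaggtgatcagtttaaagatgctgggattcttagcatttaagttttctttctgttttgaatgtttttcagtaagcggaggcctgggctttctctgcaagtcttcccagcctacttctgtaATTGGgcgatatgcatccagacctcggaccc
Their base composition differed, with 62.3% G and C and 17 CpG dinucleotides in the Gas1 window against 44.7% and 3 in the Cdon window, beside a median of 7 CpG over all 32851 windows. Windows were at hand for 8 of the 10 genes, and CpG counts in the other 6 were 47 for Ptch1, 39 for Gli3, 30 for Hhip, 28 for Gli2, 17 for Smo and 12 for Sufu. The Gli consensus GACCACCCA, searched on both strands, matched 0 of the 8 windows and 0.253% of all windows, and its core CCACCCA, which lies within it, matched 0 and 9.3%. The letters CCGGAAG (an ETS motif) and TGACTCA (an AP-1 motif), also searched on both strands, matched 0 of the 8 windows, against 8.86% and 5.2% of all windows. CCAAT was found in Gas1 (68 bases before the start), Sufu (43 bases before the start) and Cdon (19 bases after the start, opposite strand). It was found in 37.4% of all windows. These matches and the base composition describe letters only. Which start is used in these cells was not tested. The Cdon window may lie inside the gene rather than at its promoter, so its contrast with Gas1 is one of windows only. Boc and Gli1 had no window in the table used.

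Gas1 was among the most abundant transcripts of Nrdc-/- iMEF and was far lower in both groups with Nrdc. The gene lies at chr13:60275766-60278726 on the minus strand of mm9 and is annotated as protein-coding. Its level was 14.6 and 15.3 RPKM in the Nrdc+/+ libraries, 225 and 215 RPKM in the Nrdc-/- libraries and 62.6 and 58.0 RPKM in the Nrdc-/-WT libraries, from 882 to 11548 reads. The 3 groups did not overlap, and Nrdc-/-WT iMEF lay between the others. In rank among the listed genes, Gas1 stood at 229 in Nrdc-/-, 899 in Nrdc-/-WT and 4041 in Nrdc+/+ iMEF. The mean in Nrdc-/- iMEF was 14.7 times that in Nrdc+/+ iMEF and 3.65 times that in Nrdc-/-WT iMEF, and Nrdc-/-WT iMEF still held 4.03 times the level of Nrdc+/+ iMEF. In bulk RNA, fewer cells with a transcript and less of it per cell cannot be told apart.

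**Figure D1:**
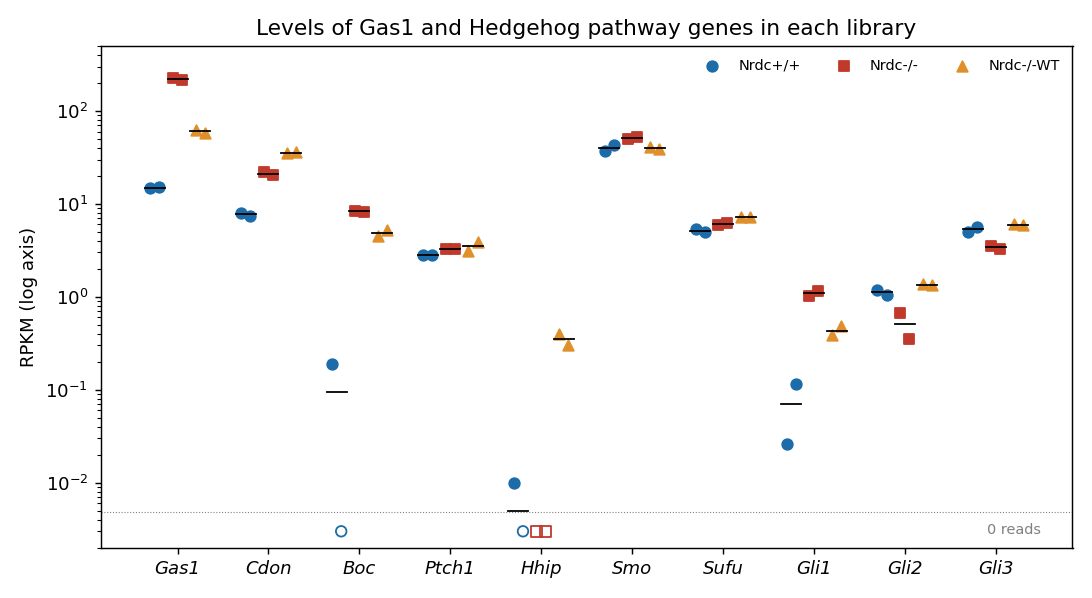
Level of each of the 10 genes in each library, in RPKM on a log axis, with 1 point per library coloured by group and a black bar at the mean of 2 libraries. Gas1 falls from 225 and 215 RPKM in Nrdc-/- iMEF to about 15 RPKM in Nrdc+/+ iMEF, whereas Smo stays between 37.2 and 52.2 RPKM and Ptch1 between 2.82 and 3.91 RPKM.

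The other 2 co-receptors were also higher in Nrdc-/- than in Nrdc+/+ iMEF, but they differed from each other in Nrdc-/-WT iMEF. Cdon, an immunoglobulin and fibronectin domain protein at chr9:35228713-35315236 on the plus strand, was at 7.997 and 7.43 RPKM in Nrdc+/+, 22.0 and 20.3 RPKM in Nrdc-/- and 34.9 and 36.2 RPKM in Nrdc-/-WT libraries. It was therefore lowest in Nrdc+/+ and highest in Nrdc-/-WT iMEF, without overlap. On the log2(RPKM + 0.25) scale used for all differences, Cdon was lower in Nrdc+/+ than in Nrdc-/- iMEF at -1.43 ± 0.073 (SE; limma, adjusted p = 6.04e-07). It was higher in Nrdc-/-WT than in Nrdc-/- iMEF by 0.74 ± 0.073 (limma, adjusted p = 6.67e-05), so the differences from Nrdc-/- iMEF had opposite signs in the 2 groups with Nrdc. The direct difference between Nrdc+/+ and Nrdc-/-WT iMEF was -2.17 ± 0.073 (limma, adjusted p = 8.07e-08).

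Boc, the relative of Cdon at chr16:44485158-44559010 on the minus strand, was nearly absent from Nrdc+/+ iMEF. It was at 0.187 and 0 RPKM (17 and 0 reads) in Nrdc+/+, 8.46 and 8.21 RPKM in Nrdc-/- and 4.52 and 5.22 RPKM in Nrdc-/-WT libraries. The groups did not overlap, although the 2 Nrdc+/+ libraries differed in whether the gene had any read. With the reads of each group pooled, the level in Nrdc-/- iMEF was 89.5 times that in Nrdc+/+ iMEF (95% exact interval 55.7 to 154, counting error only). Boc was lower in Nrdc+/+ than in Nrdc-/- iMEF at -4.70 ± 0.23 and than in Nrdc-/-WT iMEF at -3.95 ± 0.23 (limma, adjusted p = 5.41e-07 and 1.71e-06). The fitted size of these differences depends on the constant of 0.25 RPKM. The difference of Nrdc-/-WT from Nrdc-/- iMEF was -0.75 ± 0.23 (limma, adjusted p = 0.0245) and was not called when any one of the 4 libraries was left out (limma, adjusted p from 0.0653 without Nrdc-/-WT replicate 2 to 0.130 without Nrdc-/-WT replicate 1).

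Summed over the 3 co-receptors, the transcript level was 22.8 and 22.7 RPKM in Nrdc+/+, 255 and 244 RPKM in Nrdc-/- and 102 and 99.5 RPKM in Nrdc-/-WT libraries. Gas1 made up 88.1% and 88.3% of that sum in Nrdc-/- libraries. Its share was 64.1% and 67.3% in Nrdc+/+ and 61.4% and 58.3% in Nrdc-/-WT libraries, below the Nrdc-/- libraries in both groups. The ratio of Gas1 to Cdon was 1.83 and 2.06 in Nrdc+/+, 10.2 and 10.6 in Nrdc-/- and 1.80 and 1.603 in Nrdc-/-WT libraries. These sums and shares include Gas1 and are a description. Neo1, a netrin receptor on the list of binding partners of Cdon and Boc, was at 41.6, 43.7 and 13.3 RPKM in the Nrdc+/+, Nrdc-/- and Nrdc-/-WT groups (means). That list had 8 tested genes. Of them, 3 were higher and 1 lower in Nrdc+/+ than in Nrdc-/- iMEF, beside 30.2% and 32% of all tested genes. In Nrdc-/-WT against Nrdc-/- iMEF, 0 were higher and 3, Neo1 included, were lower, beside 20.5% and 22.7%.

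**Figure D2:**
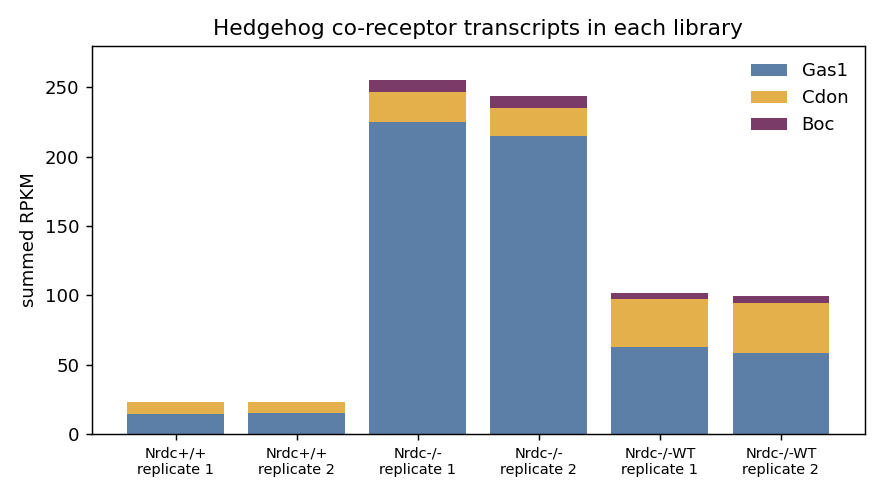
Level of Gas1, Cdon and Boc in each of the 6 libraries, in RPKM, drawn so that the heights add up to the summed co-receptor level. The sums are 22.8 and 22.7 RPKM in Nrdc+/+, 255 and 244 RPKM in Nrdc-/- and 102 and 99.5 RPKM in Nrdc-/-WT libraries, with Gas1 the largest share in each.

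The receptor Ptch1 and the signal transducer Smo differed by less than 1.3-fold in all 3 comparisons. Ptch1, at chr13:63610261-63674474 on the minus strand and 3.33 Mb from Gas1, was at 2.82 and 2.84 RPKM in Nrdc+/+, 3.27 and 3.30 RPKM in Nrdc-/- and 3.10 and 3.91 RPKM in Nrdc-/-WT libraries. None of its 3 differences was called. They were -0.20 (95% interval -0.49 to 0.090) for Nrdc+/+ minus Nrdc-/- iMEF, 0.081 (-0.21 to 0.37) for Nrdc-/-WT minus Nrdc-/- iMEF and -0.28 (-0.57 to 0.0091) for Nrdc+/+ minus Nrdc-/-WT iMEF. The last was called without Nrdc-/-WT replicate 1, the lower of its group, at -0.43 (limma, adjusted p = 0.0245).

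Smo, at chr6:29685694-29711365 on the plus strand, was at 37.2 and 42.6 RPKM in Nrdc+/+, 50.2 and 52.2 RPKM in Nrdc-/- and 40.7 and 39.3 RPKM in Nrdc-/-WT libraries. Both groups with Nrdc lay below the Nrdc-/- libraries and overlapped each other. The differences were -0.36 ± 0.075 for Nrdc+/+ and -0.35 ± 0.075 for Nrdc-/-WT against Nrdc-/- iMEF (limma, adjusted p = 0.00241 and 0.00407). Neither reached the fold of 1.3 that a call required, though each passed it when 1 of 2 single libraries was left out. For Nrdc+/+ iMEF these were Nrdc+/+ replicate 2 (-0.46) and Nrdc-/- replicate 1 (-0.39), and for Nrdc-/-WT iMEF they were Nrdc-/- replicate 1 and Nrdc-/-WT replicate 1 (both -0.38). Between Nrdc+/+ and Nrdc-/-WT iMEF the difference was -0.0074 (95% interval -0.18 to 0.17). Transcripts of Smo exceeded those of Ptch1 in every library, by 10.1 to 15.8 times.

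Hhip, a membrane protein that binds ligand and lowers signalling, was detected almost only in Nrdc-/-WT iMEF. It lies at chr8:82490014-82581905 on the minus strand and had 42 and 28 reads (0.402 and 0.306 RPKM) in Nrdc-/-WT, 1 and 0 reads in Nrdc+/+ and 0 and 0 reads in Nrdc-/- libraries. Against the limit of 3 reads over the group that a count of 0 allows, the level in Nrdc-/-WT iMEF was at least 20.7-fold higher than in Nrdc-/- iMEF. The ratio to Nrdc+/+ iMEF, which had a single read, was 71.8 (95% exact interval 12.5 to 2877). Hhip did not pass the filter of a mean of 0.5 RPKM and was not tested with the other genes. Without the filter, it was higher in Nrdc-/-WT than in Nrdc-/- iMEF by 1.27 ± 0.095 (limma, adjusted p = 0.000463) and lower in Nrdc+/+ than in Nrdc-/-WT iMEF at -1.24 ± 0.095 (limma, adjusted p = 0.000231). The fitted size of these differences depends on the constant of 0.25 RPKM and is far below the folds from reads given above. All levels of Hhip are low, and its reads are few.

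The 3 Gli factors did not share a course. Gli1, the activator that is itself a target of the pathway, was at 0.0261 and 0.115 RPKM (2 and 9 reads) in Nrdc+/+, 1.02 and 1.17 RPKM (67 and 80 reads) in Nrdc-/- and 0.385 and 0.482 RPKM (31 and 34 reads) in Nrdc-/-WT libraries. The groups did not overlap and stood in the same order as those of Gas1. The difference from Nrdc-/- iMEF was -2.08 for Nrdc+/+ iMEF and -0.98 for Nrdc-/-WT iMEF, and Nrdc+/+ minus Nrdc-/-WT iMEF was -1.10. Gli1 passed the filter of a mean of 0.5 RPKM only narrowly and through the group in which it was highest, so it could hardly pass without a difference, and these values are given as a description with no test. It fell below the filter when either Nrdc-/- library was left out. Gli1 lies at chr10:126766945-126778645 on the minus strand and shares 55 bases with Arhgap9 on the other strand, which had 0 to 14 reads per library. The strand of the counting is not stated, so reads of the shared bases cannot be told apart.

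Gli2, the main activator in the mouse embryo, and Gli3, mostly a repressor there, were lowest in Nrdc-/- iMEF. Gli2, at chr1:120730709-120950196 on the minus strand, was at 1.19 and 1.04 RPKM in Nrdc+/+, 0.665 and 0.353 RPKM in Nrdc-/- and 1.37 and 1.33 RPKM in Nrdc-/-WT libraries. The Nrdc-/- libraries lay below the other 4. The differences were 0.88 ± 0.21 for Nrdc+/+ and 1.10 ± 0.21 for Nrdc-/-WT against Nrdc-/- iMEF (limma, adjusted p = 0.00476 and 0.00213). Gli3, at chr13:15555068-15821859 on the plus strand, was at 5.01 and 5.67 RPKM in Nrdc+/+, 3.48 and 3.31 RPKM in Nrdc-/- and 6.04 and 5.89 RPKM in Nrdc-/-WT libraries. Again the Nrdc-/- libraries were lowest, with differences of 0.62 ± 0.099 and 0.77 ± 0.099 (limma, adjusted p = 0.000559 and 0.000282). Between the 2 groups with Nrdc, the difference was -0.23 (95% interval -0.70 to 0.25) for Gli2 and -0.15 (-0.38 to 0.073) for Gli3, and neither was called. Gli3 exceeded Gli2 in all libraries, by 4.20 to 9.36 times.

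Sufu, the cytoplasmic inhibitor of Gli proteins at chr19:46471386-46563294 on the plus strand, was at 5.33 and 5.01 RPKM in Nrdc+/+, 5.85 and 6.27 RPKM in Nrdc-/- and 7.21 and 7.27 RPKM in Nrdc-/-WT libraries. The 3 groups were apart but close. Against Nrdc-/- iMEF, the differences were -0.22 ± 0.087 in Nrdc+/+ and 0.25 ± 0.087 in Nrdc-/-WT iMEF (limma, adjusted p = 0.0468 and 0.0385), both under the fold required. Sufu was called only between Nrdc+/+ and Nrdc-/-WT iMEF, at -0.47 ± 0.087 (limma, adjusted p = 0.00136).

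**Figure D3:**
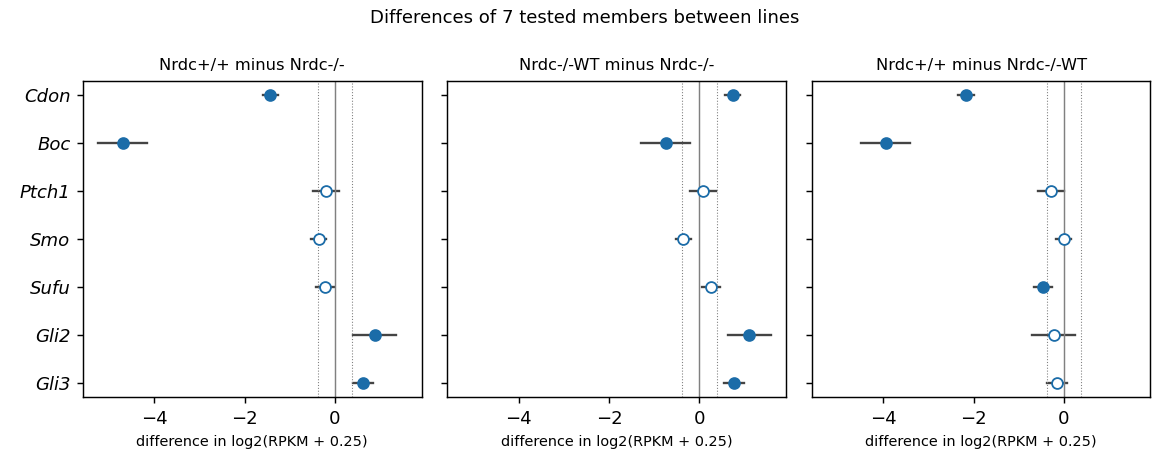
Difference in log2(RPKM + 0.25) for the 7 tested genes other than Gas1 and Gli1 in the 3 comparisons, with 95% intervals, filled symbols for called genes, and dotted lines at the 1.3-fold limit. Cdon lies at -1.43 against Nrdc-/- iMEF in the first comparison and at 0.74 in the second, whereas Gli2 and Gli3 lie above 0 in both.

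Gli1 was left out of the counts below because the filter nearly fixed its call, and Gas1 because it was selected on its values. Of the other 7 tested genes, 2 (Gli2 and Gli3) were higher and 2 (Cdon and Boc) lower in Nrdc+/+ than in Nrdc-/- iMEF. Over all 11598 genes tested, 62.1% were called in that comparison (30.2% higher and 32% lower), so 4 of 7 is near the background. In Nrdc-/-WT against Nrdc-/- iMEF, 3 genes (Cdon, Gli2 and Gli3) were higher and 1 (Boc) lower, beside 43.2% of all genes called (20.5% higher and 22.7% lower). Boc lost that call, as given above, when either library of either group was left out. In Nrdc+/+ against Nrdc-/-WT iMEF, 0 were higher and 3 (Cdon, Boc and Sufu) lower, beside 60.4% of all genes called (30.6% higher and 29.9% lower). The median difference of the 7 genes was -0.22, 0.25 and -0.28 in the 3 comparisons, against -0.0094, -0.023 and 0.019 for all genes tested. The first 2 comparisons share the Nrdc-/- libraries, so they are not independent.

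Cdon kept the third place and Hhip the last among the 10 genes in all 3 groups, while Gas1, Boc and others changed place. In Nrdc+/+ iMEF the order of means was Smo, Gas1, Cdon, Gli3, Sufu, Ptch1, Gli2, Boc, Gli1 and Hhip. The libraries of Gli3 and Sufu overlapped there, as did those of Boc and Gli1. In Nrdc-/- iMEF it was Gas1, Smo, Cdon, Boc, Sufu, Gli3, Ptch1, Gli1, Gli2 and Hhip, without overlap between neighbours. In Nrdc-/-WT iMEF it was Gas1, Smo, Cdon, Sufu, Gli3, Boc, Ptch1, Gli2, Gli1 and Hhip, where only the last pair overlapped. With 2 libraries, these orders were not tested.

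Ligands were almost without reads in all lines. Shh had 0 reads in every library, Ihh had 4 reads in 1 Nrdc-/-WT library and Dhh had 2 reads in 1 Nrdc+/+ library. Hhat, which attaches palmitate to the ligand, was at 1.24, 0.508 and 0.523 RPKM in the Nrdc+/+, Nrdc-/- and Nrdc-/-WT groups, and was called in Nrdc+/+ against Nrdc-/- iMEF (0.98 ± 0.15, limma, adjusted p = 0.000503). Of the other membrane proteins that bind Hedgehog, the glypican Gpc4 took the reverse course to Gas1, at 46.5, 2.84 and 9.86 RPKM in the Nrdc+/+, Nrdc-/- and Nrdc-/-WT groups. Its differences from Nrdc-/- iMEF were 3.93 ± 0.11 and 1.72 ± 0.11 (limma, adjusted p = 1.97e-08 and 5.54e-06). The glypican Gpc6 had the same signs as Cdon, with -1.02 ± 0.10 and 0.69 ± 0.10, and Lrp2, an endocytic receptor, was called only in Nrdc-/-WT against Nrdc-/- iMEF (1.93 ± 0.14) among those 2 comparisons.

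Of 7 target genes other than the members that could be tested, 3 were higher and 3 lower in Nrdc+/+ than in Nrdc-/- iMEF. In Nrdc-/-WT against Nrdc-/- iMEF, 4 of the 7 were higher and 2 were lower. Over all tested genes, 30.2% were higher and 32% lower in the first comparison and 20.5% and 22.7% in the second. The median differences were -0.27 and 0.42. Ccnd1, the cyclin D1 gene and also a target of many other pathways, was at 198, 34.03 and 45.6 RPKM in the Nrdc+/+, Nrdc-/- and Nrdc-/-WT groups. Bmp4, a secreted signal often induced in mesenchyme by Hedgehog, was at 2.16, 8.66 and 25.1 RPKM in the same order of groups, with differences from Nrdc-/- iMEF of -1.89 ± 0.083 and 1.51 ± 0.083. Its signs were those of Cdon. The forkhead gene Foxf1a was at 5.29, 7.07 and 10.9 RPKM (differences -0.40 and 0.61, both called). Ccnd2, the cyclin D2 gene, was at 77.4, 38.5 and 32.5 RPKM and took another course, with differences of 1.00 (called) and -0.24 (not called).

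Of 19 tested intracellular regulators of the pathway, 5 were higher and 6 lower in Nrdc+/+ than in Nrdc-/- iMEF. In Nrdc-/-WT against Nrdc-/- iMEF, 3 of the 19 were higher and 3 were lower. Of all tested genes, 30.2% and 32% were higher and lower in the first comparison and 20.5% and 22.7% in the second. The counts of the 19 are near that background. Prkaca, the catalytic subunit of protein kinase A, which marks Gli proteins for processing, was at 40.4, 83.7 and 116 RPKM in the Nrdc+/+, Nrdc-/- and Nrdc-/-WT groups (differences from Nrdc-/- iMEF of -1.05 and 0.47, both called). Cul3, a scaffold of ubiquitin ligases that act on Gli proteins, ran the other way, at 36.2, 26.7 and 20.5 RPKM (0.43 and -0.38, both called). Spop and Csnk1a1, the other abundant genes of this list, were called in neither comparison. Of 31 genes of transport in the primary cilium, 5 were higher and 9 lower in Nrdc+/+ against Nrdc-/- iMEF, and for Nrdc-/-WT iMEF these counts were 7 and 4, beside the same shares of all tested genes. Their median differences of -0.14 and 0.023 were small. Dync2li1, of the dynein that returns cargo from the cilium tip, was at 71.2, 6.27 and 12.5 RPKM in the Nrdc+/+, Nrdc-/- and Nrdc-/-WT groups. Arl3, Ift20 and Ift27, also abundant on this list, went the other way in Nrdc+/+ against Nrdc-/- iMEF. Their differences were -0.88, -0.96 and -0.57 (all called), and none of them was called in Nrdc-/-WT against Nrdc-/- iMEF.

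**Figure D4:**
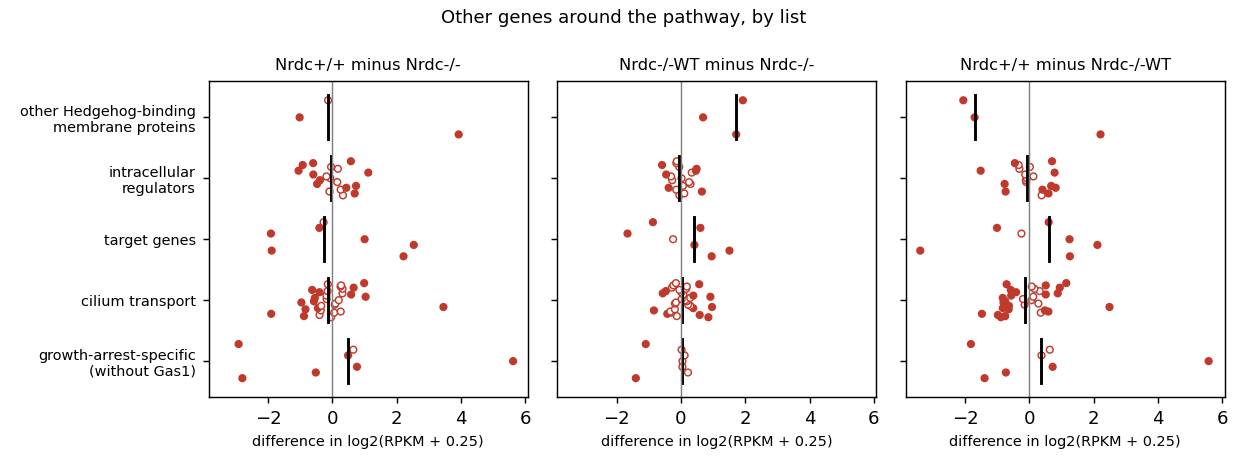
Difference in log2(RPKM + 0.25) in the 3 comparisons, 1 panel each, for the tested genes of each pathway list other than the 10 genes themselves, 1 point per gene, filled where called, with a black bar at the median of the list. The medians of the 19 intracellular regulators in the first 2 panels are -0.039 and -0.047 and those of the 31 cilium genes -0.14 and 0.023, with genes on both sides of 0.

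Gas1 also belongs to 2 groups outside the pathway. Among 7 other growth-arrest-specific genes, 3 were higher and 3 lower in Nrdc+/+ than in Nrdc-/- iMEF, beside 62.1% of all tested genes called. In Nrdc-/-WT against Nrdc-/- iMEF, 0 were higher and 2 (Pmp22 and Gas2) lower, beside 43.2%. Pmp22 (Gas3), a myelin and membrane protein, was at 19.3, 147 and 68.996 RPKM in the Nrdc+/+, Nrdc-/- and Nrdc-/-WT groups, in the order seen for Gas1. Gas2, a cytoskeletal protein, was at 0.635, 5.91 and 2.08 RPKM, also in that order. Gas6, the ligand of the Axl family of receptors, was at 12.6 RPKM in Nrdc+/+ iMEF and at a mean of 0.0111 and 0.0207 RPKM in Nrdc-/- and Nrdc-/-WT iMEF. Gas6 passed the filter only through Nrdc+/+ iMEF, so its level there is a description, though it is among the 3 counted as higher. Gas1 is related in structure to the GDNF receptors, of which Gfra1 was at 3.96, 0.459 and 3.17 RPKM in the Nrdc+/+, Nrdc-/- and Nrdc-/-WT groups. The ligand gene Gdnf was at 8.74, 4.78 and 13.4 RPKM, and Ret, the signalling partner, had group means of at most 0.0563 RPKM.

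The 5 genes whose pattern over the 6 libraries was most like that of Gas1 were not on any of the lists above. Likeness was the distance between log2(RPKM + 0.25) values centred on the mean of each gene, among 7919 genes whose mean level reached 5 RPKM. The nearest were H2-Q4 (distance 0.51), an MHC class I gene whose family can share reads, C630004H02Rik (0.59), the glucose transporter Slc2a6 (0.62), the proteoglycan Cspg4 (0.62) and Fam180a (0.73). Cspg4 was at 3.52 and 2.65 RPKM in Nrdc+/+, 51.7 and 53.6 RPKM in Nrdc-/- and 17.8 and 19.0 RPKM in Nrdc-/-WT libraries. None of the 5 lies on chromosome 13 with Gas1.

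**Figure D5:**
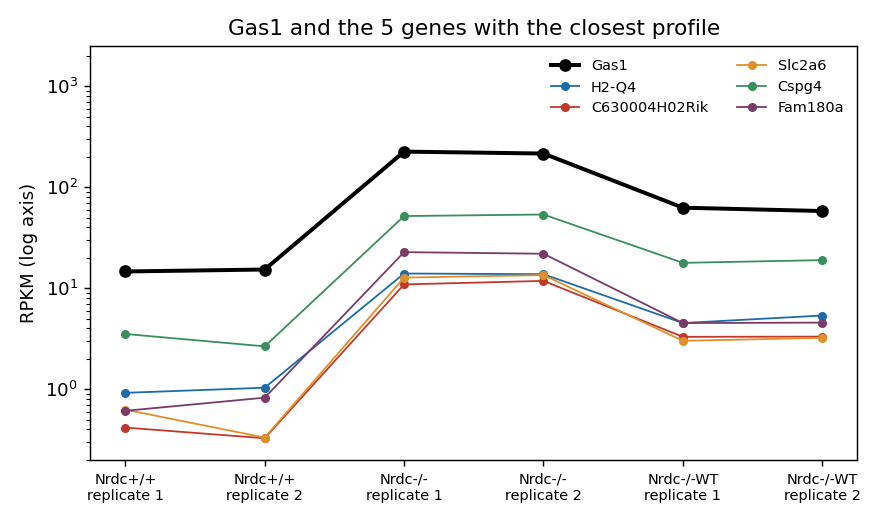
Level of Gas1 and of the 5 genes nearest to it in pattern, in RPKM on a log axis, for each of the 6 libraries, with a line joining the points of 1 gene. All 6 genes are highest in both Nrdc-/- libraries and lowest in both Nrdc+/+ libraries. The 5 genes were chosen for their likeness to Gas1 over these libraries, so the shared order is not a separate result.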

How the data were processed

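The 6 RNA-seq libraries, 2 per group, were assigned to groups by the sample labels. According to the methods, mRNA libraries were read on Ion Proton sequencers and mapped to mm9 by STAR, with unmapped reads passed to Bowtie2. Reads per gene came from featureCounts, from which the authors derived RPKM in edgeR. No version of these programs and no strand setting is given in the sources used here. The deposited values are log2 of RPKM plus a small constant, whereas RPKM had been assumed when the test was planned. The constant was subtracted, which gave whole reads after multiplication by gene length.

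The 11598 genes whose mean reached 0.5 RPKM were compared on log2(RPKM + 0.25) in 1 limma fit over all 6 libraries (limma 3.58.1, R 4.3.3, lmFit and eBayes with a trend), and p-values were adjusted over all of them by Benjamini-Hochberg. Calls needed a fold of 1.3 or more and an adjusted p below 0.05. The code was tested on simulated data. Reads over the listed genes were 16385565 to 19764315 per library. The inferred library sizes were 17302191 to 21313709 reads. A count of 0 was set against 3 reads over a group. That limit and exact intervals cover counting error only.

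The genes and lists were chosen with earlier results of these data known. All 10 genes and Nrd1 are named, as may be genes of lists of 8 or fewer, the 4 most abundant of longer lists and the 5 most like Gas1. The fibroblast markers named, and the ETS, AP-1 and CCAAT motifs, were chosen after values were seen. Annotation was GENCODE vM1 (mm9). Windows at annotated starts were from RefSeq (GRCm38.p6), and coordinates of the 2 builds were not mixed. Plots were made in matplotlib 3.10.9 (Python 3.11.15). Alternatives were other pseudocounts, filters, scalings, fits and thresholds, a replicate block and leaving out each library.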

Additional observations from a re-analysis of the deposited data

Results flagged for a closer look

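Cdon differed between the 2 groups with Nrdc in its difference from Nrdc-/- iMEF. Both libraries of Nrdc+/+ iMEF lay below and both of Nrdc-/-WT iMEF above the Nrdc-/- libraries, at -1.43 and 0.74 on the log2(RPKM + 0.25) scale. The test of the difference between these effects gave -2.17 (limma, adjusted p = 8.07e-08). The 2 effects share the Nrdc-/- libraries, and neither an effect of infection nor one of the lines can be told apart from one of Nrdc here.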

How the results depend on the processing

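Of the differences of single genes under the alternatives, 347 kept their direction and side of the threshold, 4 turned in direction, 6 passed and 15 lost the threshold. These counts include Gli1, whose values are a description. The 4 were of uncalled values. Ptch1 in Nrdc-/-WT against Nrdc-/- iMEF was -0.075 without Nrdc-/-WT replicate 2 and up to 0.24 when other libraries were left out. In Nrdc+/+ against Nrdc-/-WT iMEF, Smo ranged from -0.10 to 0.090 when each library was left out, with 0.090 without Nrdc+/+ replicate 1 and 0.018 without Nrdc-/-WT replicate 1, and Gli2 was 0.029 with quantile normalization. Gli1 in that comparison, given only as a description, was -0.39 with quantile normalization instead of -1.10. The call of Boc in Nrdc-/-WT against Nrdc-/- iMEF was lost with a pseudocount of 0.05 RPKM, without a filter and with quantile normalization (limma, adjusted p = 0.303, 0.0847 and 0.0831). The cause was not tested. Of the 8 genes, Gli1 included, the 2 higher in Nrdc+/+ than in Nrdc-/- iMEF became 1 under a filter of 2 RPKM, which leaves out Gli2, and 0 with a fold of at least 2. The 2 lower in Nrdc-/-WT iMEF against Nrdc-/- iMEF became 1 with a pseudocount of 0.05 RPKM, without a filter, under a filter of 2 RPKM and with quantile normalization, 0 with a fold of at least 2, and 0 to 2 when each library was left out. These were not the same genes. Boc was lost without any Nrdc-/- or Nrdc-/-WT library, Gli1 was not tested without either Nrdc-/- library, and Smo was called in their place without Nrdc-/- replicate 1 or Nrdc-/-WT replicate 1. The 3 higher there became 1 with a fold of at least 2. A fold of at least 2 also left 11 higher and 8 lower genes of the other lists in Nrdc+/+ against Nrdc-/- iMEF, 5 and 4 in Nrdc-/-WT against Nrdc-/- iMEF and 10 and 9 in Nrdc+/+ against Nrdc-/-WT iMEF. Leaving out each library gave 9 (without Nrdc-/- replicate 1) to 14 lower genes of these lists in Nrdc-/-WT against Nrdc-/- iMEF. Over the whole table a fold of at least 2 left 1280 and 1626, 767 and 631, and 1224 and 1502. Samples of the same number did not deviate together (correlations of -0.031, -0.10 and 0.0096 over 11598 genes), so the numbers were not taken as pairs. With the replicate number as a block, 3502 genes were higher and 3716 lower in Nrdc+/+ than in Nrdc-/- iMEF. The counts with that block were 2372 and 2630 in Nrdc-/-WT against Nrdc-/- iMEF, and 3546 and 3476 in Nrdc+/+ against Nrdc-/-WT iMEF. No call among the 7 genes changed. With 2 libraries per group, differences smaller than about the 1.3-fold limit and levels under a few reads, as in Hhip, are measured with little precision.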

Other observations

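The nearest tested gene on either side of each of the 10 genes was examined after the values of the 10 genes were seen. Of these 20 neighbours, 12 were higher and 3 lower in Nrdc+/+ than in Nrdc-/- iMEF, beside 30.2% and 32% of all tested genes. In Nrdc-/-WT against Nrdc-/- iMEF, 3 were higher and 3 lower, beside 20.5% and 22.7%. The neighbours of Gas1, Zcchc6 (351 kb away) and Zfp808 (1953 kb away), did not follow it. Their differences in Nrdc+/+ against Nrdc-/- iMEF were 0.53 and 0.94, both called as higher, where Gas1 was lower. Ddx25, an RNA helicase gene 34.2 kb from Cdon, was at 0.450, 0.118 and 4.10 RPKM in the Nrdc+/+, Nrdc-/- and Nrdc-/-WT groups. It passed the filter only through Nrdc-/-WT iMEF, so its level there is a description. Gm5614 was at 4.76, 13.01 and 14.6 RPKM in the same order, and its difference of 0.17 between Nrdc-/-WT and Nrdc-/- iMEF was not called.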
